A study of Arabidopsis thaliana with 24 samples.

Results

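The line urt1.2 stands in the authors' deposited table beside urt1-1 and is taken here, from its name alone, as a second mutant of URT1. Every entry that the table gives under the genotype urt1.2 was taken, which gave 174 loci among 28194 entries for 14888 loci in 13 mutant lines. The table holds entries with an adjusted p under 0.05 and no values of single libraries. None of the 24 labelled libraries is called urt1.2, so the number of its libraries, its tissue and its kind of mutation are not given in the sources used here.

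The labelled libraries hold small RNA from inflorescences of Arabidopsis thaliana, ecotype Col-0, in 8 groups of 3 libraries each. Besides the Col-0 wild type they are ski2-5, rrp4-2, urt1-1 and heso1-4 as single mutants, heso1-4/urt1-1 as a double mutant, and 2 triple mutants, rrp4-2/urt1-1/dcl2CRISPR and rrp4-2/urt1-1/heso1-4. The groups used here beside urt1.2 are urt1-1, heso1-4/urt1-1 and the line GKheso1, an unlabelled heso1 line that the table does not equate with heso1-4. No genotype of the table is called Col-0, nor heso1-4 alone. The table names no reference, and Col-0, the labelled wild type, was taken as the reference of every line. All fold changes are therefore mutant over Col-0 and all lines share that reference. In bulk tissue, fewer cells of a type and less small RNA per cell cannot be told apart. The tissue of urt1.2 could not be checked by markers, since 0 of 7 floral organ genes and 0 of 2 pollen genes were listed and the table gives no level per line.

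URT1 is a terminal nucleotidyl transferase that adds uridines to mRNA tails shortened by deadenylation, which limits further trimming and keeps such mRNAs from entering siRNA production. HESO1 is its relative, best known for tailing unmethylated microRNAs and the fragments left by microRNA-guided cleavage. Secondary siRNAs arise when RDR6 copies a cleaved or aberrant RNA into double strands and Dicers cut these into short duplexes. MicroRNAs of 22 bases, such as miR393, are known to start this on the mRNAs they guide. The question the line addresses is whether losing URT1 through another allele changes the small RNAs of the same loci.

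Small RNA at the URT1 locus itself (AT2G45620) was not listed in urt1.2 in the authors' deposited table, while it was listed at -1.31 on the log2 scale in urt1-1 and at -1.31 in heso1-4/urt1-1. It was listed as lower in 7 lines, the 7 others with urt1 in their names, from -1.74 in ski2urt1dcl2.107 to -0.81 in rrp4-2/urt1-1/heso1-4, and urt1.2 was the only line so named without an entry for it. A change in urt1.2 larger than 0.996 in either direction would have passed the line's threshold, a limit above the sizes in rrp4-2/urt1-1/heso1-4 and in rrp4urt1dcl2het (-0.84). This detection limit is the normal quantile at the largest p listed for urt1.2, 0.000226, times the standard error of the locus. The targeted gene therefore gave no check of the label urt1.2. Of the other mutated genes, HESO1 was not listed either (limit 0.954), nor was DCL2 (limit 0.811), while no line had an entry for SKI2 or RRP4. Absence from the list does not show that a locus kept its level, because 149 of the 323 ranks that passed the threshold in urt1.2 are missing and 53.9% are present.

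The sequences that the main loci share are shown first, from the RefSeq TAIR10.1 genome and annotation. The series' own build is TAIR10, and its table has no coordinates. Capitals in a mature microRNA mark the seed, bases 2 to 8, and T stands for U. miR393a-5p and miR393b-5p are the same 22 bases, encoded at chr2:16652111-16652132 (+) and chr3:20691657-20691678 (+). miR774a is encoded at chr1:22150005-22150025 (+) and miR5657 at chr5:9789642-9789662 (+). No seed is shared between the 3.
miR393a-5p: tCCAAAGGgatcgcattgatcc
miR774a: tTGGTTACccatatggccatc
miR5657: tGGACAAGgttagatttggtg

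The sites below are the best ungapped matches to miR393 in its known targets, all in 1 coding exon, with capitals for bases that do not form a Watson-Crick pair with the microRNA (G:U included). AFB3 holds its site at chr1:4369085-4369106 (-), AFB2 at chr3:9870237-9870258 (+), TIR1 at chr3:23273727-23273748 (-), AFB1 at chr4:1405341-1405362 (-) and the bHLH gene AT3G23690 at chr3:8530587-8530608 (-).
AFB3 site: gAaAcaatgcgatccctttgga
AFB2 site: gAaAcaatgcgatccctttgga
TIR1 site: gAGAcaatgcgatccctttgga
AFB1 site: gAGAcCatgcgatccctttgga
AT3G23690 site: ggGtcaGAgcgatccctttggC
The AFB3 and AFB2 sites are identical. The TIR1 site has 1 more base outside Watson-Crick pairs than these, and the AFB1 site has 2 more. Counting a mismatch as 1 and a G:U pair as 0.5, sites scoring 3 or less were found in 4 of 31340 annotated transcripts, 1 transcript a gene, or 0.0128%. Of these 4 genes, AFB3, AFB2 and AT3G23690 were listed in urt1.2 and TIR1 was not.

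Small RNA rose at the 3 miR393 targets AFB3, AFB2 and AT3G23690. AFB2 and AFB3 encode F-box auxin receptors, which bind auxin together with Aux/IAA repressors and mark these for breakdown, and AT3G23690 encodes a bHLH transcription factor. AFB3 (AT1G12820, chr1:4368760-4371298, -) was listed at 1.30 ± 0.14 on the log2 scale, a 2.46-fold rise, with an adjusted p of 1.73e-15 and a mean normalised count of 328 in the authors' deposited table. The error here and below is a standard error recovered from the deposited p of the authors' DESeq2 test. AFB2 (AT3G26810, chr3:9867652-9870782, +) was listed there at 1.38 ± 0.16, or 2.61-fold, with an adjusted p of 1.65e-14 and a mean count of 187. AT3G23690 (chr3:8528609-8531358, -) was listed at 1.56 ± 0.17, or 2.94-fold, with an adjusted p of 9.78e-17 and a mean count of 381. Each rise was more than 8 times its error.

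The remaining receptors were not listed. The limit was 0.650 for TIR1 (mean count 146) and 0.748 for AFB1 (mean count 86.6), so rises as large as those of AFB2 and AFB3 would have passed the threshold. A locus that passed may still be missing from the list, so these absences do not show smaller rises. The auxin receptor list had 2 of 4 members listed as higher and 0 as lower with a median of 1.34, beside 0.148% of 69793 tested loci listed as higher in urt1.2. A list of 64 conserved microRNA target genes held the same 2 members higher (3.12%) and 0 lower, and 42 of the 64 have an entry in any line. The antisense RNA AT1G04977 lies across 638 bases of AFB3 on the other strand and was listed at 1.19 ± 0.18. Whether the authors' counting used strand is not given in the sources used here, so reads of AFB3 and of AT1G04977 cannot be told apart.

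The same loci stood close to these values in urt1-1. The authors' deposited table gives AFB3 at 1.41, AFB2 at 1.46 and AT3G23690 at 1.55 in urt1-1, and at 1.08, 1.12 and 0.96 in heso1-4/urt1-1. None of the 3 was listed in GKheso1, where the limits, from the errors in urt1.2, were 0.531, 0.585 and 0.614. AFB2 and AFB3 were each listed in 8 of the 13 lines, and these are the 8 lines with urt1 in their names.

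**Figure D1:**
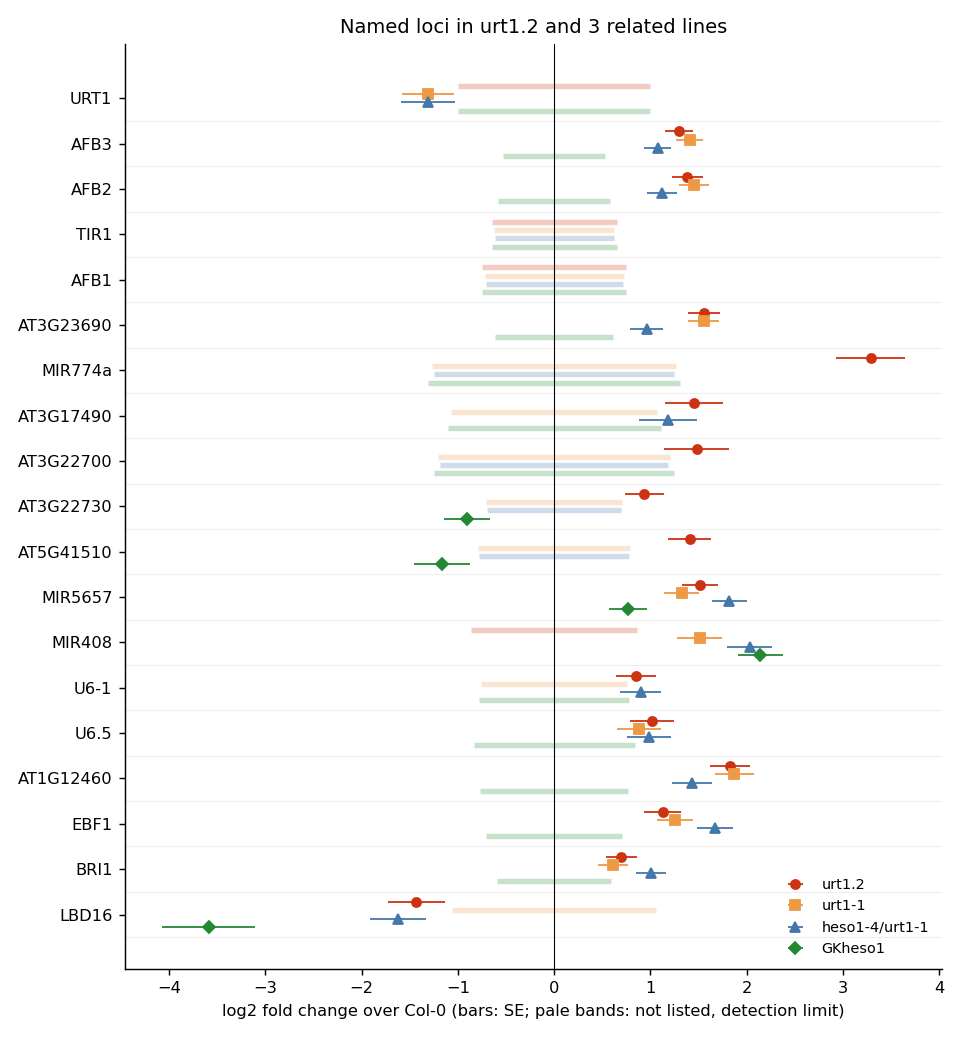
Log2 fold change over Col-0 (x axis) of 19 named loci (y axis) in urt1.2, urt1-1, heso1-4/urt1-1 and GKheso1. Points are deposited values with recovered standard errors as bars, and a pale band is the range of changes below the detection limit where a line does not list the locus. AFB3, AFB2 and AT3G23690 lie at 1.30, 1.38 and 1.56 in urt1.2 beside similar values in urt1-1, while MIR774a has a point in urt1.2 and bands elsewhere.

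The microRNA gene MIR774a (AT1G60073, chr1:22149936-22150033, +) rose by 3.29 ± 0.36 in the authors' deposited table, or 9.78-fold, with an adjusted p of 2.07e-16. It was listed in urt1.2 alone of the 13 lines. Its mean normalised count was low, at 15.8. The limits for MIR774a were 1.27 in urt1-1, 1.25 in heso1-4/urt1-1 and 1.31 in GKheso1, all under the value in urt1.2. They rest on its error in urt1.2, and with fewer reads in another line the error, and so the limit, could be larger. Missing from the list are 222 of 514 passing ranks in urt1-1, 231 of 636 in heso1-4/urt1-1 and 141 of 360 in GKheso1. Absence there therefore does not show that MIR774a kept its level. Because it was listed in no other line, the difference between lines was not tested. miR774a is known to guide cleavage of mRNAs of F-box genes, which encode the substrate-binding subunits of ubiquitin ligases.

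Of the 7 genes with the best matches to miR774a, 6 are annotated as F-box or F-box-associated genes and AT5G30102, with a site outside coding sequence, is uncharacterized. Sites that bear on urt1.2 are shown with the same use of capitals. The sites are at chr3:5985630-5985650 (+) in AT3G17490, chr3:8024991-8025011 (-) in AT3G22700, chr3:8029262-8029282 (-) in AT3G22720 and chr3:8031642-8031662 (-) in AT3G22730, all in 1 coding exon.
AT3G17490 site: gatggATatatgggtGaccaa
AT3G22700 site: gatggAGatatggAtaaccaa
AT3G22720 site: gatggAGatatggAtaaccaa
AT3G22730 site: AatggAGatGtgggtGaccaa
AT3G22700 and AT3G22720 hold the same 21 bases. Sites scoring 3 or less were found in 7 of 31342 transcripts (0.0223%), and 2 of these 7 genes, AT3G17490 and AT3G22700, were listed in urt1.2. At a score of 4 or less there were 52 genes (0.166%), and AT3G22730 was the only further listed one.

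Small RNA rose at AT3G17490, AT3G22700 and AT3G22730 in urt1.2, and also in lines that do not list MIR774a. AT3G17490 was listed at 1.45 ± 0.30 (adjusted p 0.000733, mean count 39.3) and AT3G22700 at 1.48 ± 0.34 (adjusted p 0.004, mean count 33.3) in the authors' deposited table, which classes both as microRNA targets. AT3G22730 was listed there at 0.94 ± 0.20 (adjusted p 0.00119, mean count 129). AT3G17490 was also listed at 1.18 in heso1-4/urt1-1, whereas AT3G22700 was listed in neither urt1-1 nor heso1-4/urt1-1, where the limit was 1.18 in the latter. All 3 genes were listed as higher in 5 further lines, which are rrp4-2, rrp4urt1dcl2.B9, rrp4urt1dcl2het, rrp4-2/urt1-1/heso1-4 and ski2urt1dcl2.123. In rrp4-2 the authors' deposited table gives AT3G17490 at 0.90, AT3G22700 at 1.56 and AT3G22730 at 0.76, and in rrp4urt1dcl2.B9 at 1.58, 1.72 and 0.96. AT3G22720, with the same site as AT3G22700, was not listed in urt1.2 (limit 0.991), and AT3G17265, which scores 3, was not listed either (limit 1.91, mean count 7.55). The best match, in AT3G19890 with a score of 1, belongs to a gene without an entry in any line. AT3G22700, AT3G22720 and AT3G22730 are neighbours of 1 family, and reads that fit more than 1 of them could be split among them.

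F-box genes as annotated by product were counted after their values were seen. Of 654 such loci, 9 were listed as higher and 0 as lower (1.38%), with a median of 1.39 over the 9, beside 0.148% of all tested loci. The 654 are all annotated loci of this kind, tested or not, and 151 of them have an entry in any line. The 9 are AFB2, AFB3, the 3 genes with miR774a sites, EBF1, AT5G41510, AT1G66490 and AT2G21920. AT5G41510, AT1G66490 and AT2G21920 have no miR774a match better than 8 by the same score. In the authors' deposited table AT5G41510 stood at 1.41 ± 0.22, AT1G66490 at 1.48 ± 0.40 and AT2G21920 at 1.39 ± 0.27. EBF1, whose product marks the ethylene regulators EIN3 and EIL1 for breakdown, was listed at 1.13 ± 0.19 with an adjusted p of 3.53e-06. AT5G11370, annotated with FBD and leucine-rich repeat domains and not among the 654, was lower, at -3.83 ± 0.67.

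The only other microRNA gene listed was MIR5657 (AT5G04415, chr5:9789582-9789666, +), at 1.52 ± 0.19 with an adjusted p of 1.40e-12 and a mean count of 335 in the authors' deposited table. All of its 85 bases lie inside DEG14 (AT5G27660), a protease gene on the other strand, which was listed at 1.23 ± 0.15 with an adjusted p of 1.32e-12. Reads of this pair cannot be told apart either. MIR5657 was listed at 1.33 in urt1-1, 1.82 in heso1-4/urt1-1 and 0.77 in GKheso1. In all, 2 of 326 microRNA genes were higher (0.613%) and 0 were lower, beside 0.148% and 0.102% over all tested loci. The 326 are all annotated genes of this kind, and 158 of them have an entry in any line. How many of them were tested is not known, so the shares rest on unlike totals.

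The 7 microRNA genes known to be induced when copper is scarce were not listed in urt1.2, although each was listed in 10 to 12 of the 13 lines. MIR408 was listed in 12 lines, that is in every line except urt1.2. In urt1-1 the authors' deposited table gives MIR408 at 1.52, MIR398A at 1.31, MIR398B and MIR398C at 1.38 each, MIR397A at 1.83, MIR397B at 1.94 and MIR857 at 2.17. The limits for these genes in urt1.2 were 0.866 for MIR408, 0.938 for MIR398A, 0.923 for MIR398B, 0.921 for MIR398C, 1.64 for MIR397A, 1.66 for MIR397B and 1.52 for MIR857. Every value in urt1-1 was thus above the limit in urt1.2, though narrowly at MIR397A. ARPN, the plantacyanin mRNA guided by miR408, was listed at 1.77 in urt1-1 and was not listed in urt1.2 (limit 1.34). These differences between the alleles were not tested, since urt1.2 has no value for them, and a missing entry could lie above its limit. Of the 13 mRNA targets of the copper microRNAs, 0 were listed in urt1.2, and 5 have an entry in any line. With 0.249% of all tested loci listed in urt1.2, a count of 0 among 13 is close to the background.

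Among small nuclear RNA genes, 7 of 82 were higher (8.54%) and 0 lower, beside 0.148% higher and 0.102% lower over all tested loci. The 82 are all annotated genes of this kind, tested or not, and 47 of them have an entry in any line. All 7 are copies of U6, the spliceosomal RNA made by RNA polymerase III that helps form the catalytic centre. Their deposited changes ran from 0.83 at U6-29 to 1.01 at U6.5 with a median of 0.85, and their mean counts from 2681 to 3728 were among the highest of the line.

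Annotated genes that overlap these copies were listed as well. AT3G13857 spans U6-26 over 101 bases on the same strand, NARA5 (AT4G27600, a carbohydrate kinase gene) overlaps U6.3 by 101 bases on the other strand, and AT4G08735 overlaps U6.5 by 97 bases on the same strand. The authors' deposited table gives them 0.85, 0.84 and 1.01, with mean counts of 3723, 3767 and 2714. The transcribed region AT5G09115, also among the 6 listed loci of highest mean count, stood there at 0.85 with a mean count of 3730. How reads matching several copies were counted is not given in the sources used here, so the 7 copies and the genes overlapping them cannot be told apart as sources. The U6-1 change of 0.85 ± 0.21 had an adjusted p of 0.016, which does not pass 0.01. It was listed at 0.90 in heso1-4/urt1-1 and not in urt1-1 (limit 0.755), where U6.5 was listed at 0.88 and U6-29 at 0.73. No snoRNA gene of 287 and no tRNA gene of 672 was listed, and 86 and 187 of these have an entry in any line. With 0.249% of all tested loci listed in urt1.2, these counts of 0 are near the background.

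Of 55 listed protein-coding loci, 34 were higher and 21 lower. Among receptors and kinases, the leucine-rich repeat kinase AT1G12460 rose by 1.83 ± 0.21 with an adjusted p of 1.03e-14 in the authors' deposited table, beside 1.87 in urt1-1 and 1.43 in heso1-4/urt1-1. BRI1, the brassinosteroid receptor, was listed there at 0.70 ± 0.16 and the kinase PEPKR2 at 1.31 ± 0.22. BRI1 stood at 0.61 in urt1-1 and 1.00 in heso1-4/urt1-1. BRI1, PEPKR2 and, among the genes that follow, TCP14, AGL12, NAC105, MBF1C, MBR1, AT4G09500, AT2G48130 and LBD16 were chosen for naming after their values were seen.

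Among regulators of transcription, TCP14, a growth regulator of the TCP family, was listed at 1.39 ± 0.23 in the authors' deposited table, AGL12, a MADS-box factor known from roots, at 1.87 ± 0.44 and the NAC factor gene NAC105 at 2.44 ± 0.39. The ERF-type factor gene AT5G07310 rose by 3.19 ± 0.54 and the zinc finger gene AT3G57480 by 3.77 ± 0.92, the latter with an adjusted p of 0.0122. MBF1C, a coactivator of the heat response, stood at 1.39 ± 0.35. LBD16, known for lateral root initiation downstream of auxin, fell, with -1.43 ± 0.30 and an adjusted p of 0.000779. MBR1, a RING ubiquitin ligase gene with a mean count of 1071, was listed at 1.39 ± 0.24, and LCR10, a cysteine-rich peptide gene that begins 205 bases past it on the same strand, at 3.13 ± 0.47. Among enzymes, the glycosyltransferase gene AT4G09500 stood at 2.39 ± 0.34 and the berberine-bridge-like oxidase gene AT1G26380 at 2.61 ± 0.55. The thionin-like gene AT1G12665 rose by 2.55 ± 0.57.

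Among the protein-coding genes that fell, the FBD and leucine-rich repeat gene AT5G11370, at -3.83, was deeper than all but AT5G40020 and AT3G43970. The thaumatin-like gene AT5G40020 was listed at -4.54 ± 0.73, or 23.2-fold lower, with an adjusted p of 6.18e-07 in the authors' deposited table, beside -5.02 in urt1-1, -4.77 in heso1-4/urt1-1 and -5.06 in GKheso1. The peroxidase gene AT2G34060 stood at -3.83 ± 0.82, the uncharacterized genes AT3G43970 and AT1G33820 at -4.05 ± 0.89 and -3.83 ± 0.95, and the MATE efflux gene AT3G03620 at -2.23 ± 0.35. The lectin gene AT3G53065 and the EF-hand gene AT5G17470 were listed at -2.13 ± 0.50 and -2.09 ± 0.36. AT2G48130, a lipid-transfer protein gene, fell by 1.67 on the log2 scale at a mean count of 356.

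**Figure D2:**
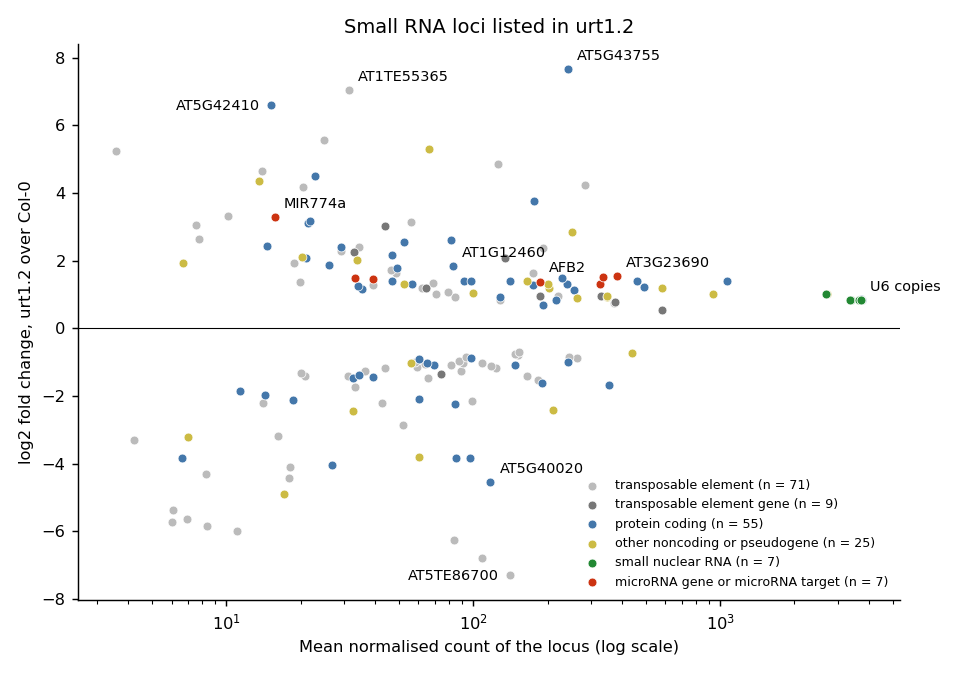
Log2 fold change of the 174 loci listed in urt1.2 (y axis) against the mean normalised count of the locus in the authors' deposited table (x axis, log scale), coloured by locus type. Changes reach 7.66 at a mean count of 242 and -7.29 at a mean count of 140.3, and the U6 copies sit at the right edge with changes from 0.83 to 1.01.

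Over all 174 loci, 103 were higher and 71 lower. This is 0.249% of the 69793 loci tested in either direction, 0.148% for the higher and 0.102% for the lower ones. The median change was 1.39 among the higher loci and -1.54 among the lower ones, the median standard error was 0.302, and the median mean count was 72.3, beside 83.2 for all loci of the table. A change of at least 2-fold was seen at 80 of the higher and 60 of the lower loci. Of the loci, 66 had a mean count under 50, and their median changes, 2.28 and -2.44, were larger than those of all listed loci. Smaller changes pass the test only at loci with smaller errors, so these medians describe listed loci.

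The largest rise was at AT5G43755 (chr5:17582977-17583772, -), annotated as a protein like a reverse transcriptase of a non-LTR retroelement, at 7.66 ± 1.21 in the authors' deposited table. It was listed at 7.53 in urt1-1, 7.10 in heso1-4/urt1-1 and 6.58 in GKheso1. AT5G42410, a gene of the SAUR family of early auxin-responsive proteins, rose by 6.61 ± 0.87 in urt1.2 at a mean count of 15.1, was listed at 4.61 in heso1-4/urt1-1 and was not listed in urt1-1. The long noncoding RNA AT3G08935 was listed at 5.31 ± 1.11 and the uncharacterized gene AT1G47389 at 4.50 ± 0.98. The transposable element AT3TE47955 had the smallest p of the line, 4.32e-27, with a rise of 2.38 ± 0.22, and was listed at 2.56 in urt1-1, 2.28 in heso1-4/urt1-1 and 2.29 in GKheso1.

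Transposable elements made up 71 of the 174 loci, with 29 higher and 42 lower. They are mobile DNA kept silent largely by siRNAs of RNA polymerase IV. The 8 deepest falls of the line were in this class. The authors' deposited table gives -7.29 ± 1.51 for AT5TE86700, -6.80 ± 1.12 for AT1TE13970, -6.25 ± 0.96 for AT2TE10490 and -6.01 ± 1.26 for AT1TE61180. Next came AT3TE39040, AT4TE48135, AT1TE23280 and AT3TE72090, from -5.85 to -5.36 at mean counts of 6.03 to 8.38. The largest rises in the class were 7.04 ± 1.22 at AT1TE55365, 5.58 ± 1.2 at AT4TE04200, 5.24 ± 1.00 at AT2TE09510, 4.87 ± 0.63 at AT5TE57585 and 4.65 ± 0.93 at AT2TE43405. AT5TE57585 stood at 4.84 in urt1-1 and AT2TE43405 at 4.16, while AT1TE55365, AT4TE04200 and AT2TE09510 were not listed there. Among the falls, AT5TE86700, AT1TE13970 and AT2TE10490 were not listed in urt1-1 either. AT1TE61180 was listed in urt1-1 at -4.70, AT3TE39040 at -4.04, AT4TE48135 at -5.40, AT1TE23280 at -5.29 and AT3TE72090 at -5.15. Absence from the list does not show that an element kept its level.

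Transposable element genes, the annotated genes inside such elements, counted 8 higher and 1 lower, and the difference between the classes was not tested. Long noncoding RNAs counted 6 higher and 3 lower, transcribed regions outside annotated gene classes 7 higher and 0 lower, and pseudogenes 1 higher and 4 lower. The pair AT3G42658 and AT3TE60310 had the same mean count, 64.2, and the same change, 1.18, and may be 1 stretch listed under both names. Other pairs of an element and an element gene had close values, at 0.78 and 0.76 for AT4G06567 and AT4TE15845, 2.25 and 2.28 for AT3G42680 and AT3TE60375, and -1.35 and -1.27 for AT1G44707 and AT1TE55910 in the authors' deposited table. Without coordinates for the elements, such pairs could not be matched, so some stretches may be counted in both classes. The counts of higher and lower loci by chromosome were 21 and 18 on chromosome 1, 14 and 13 on chromosome 2, 27 and 20 on chromosome 3, 22 and 11 on chromosome 4, and 19 and 9 on chromosome 5. Of the 103 loci with RefSeq coordinates, 1 run of at least 4 loci with gaps under 100000 bases was found, at chr1:4247218-4371298. It spans 124.1 kb and holds AT1G12460, AT1G12665, PEPKR2, AFB3 and AT1G04977, all higher, and the PPR gene AT1G12615, which was lower.

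**Figure D3:**
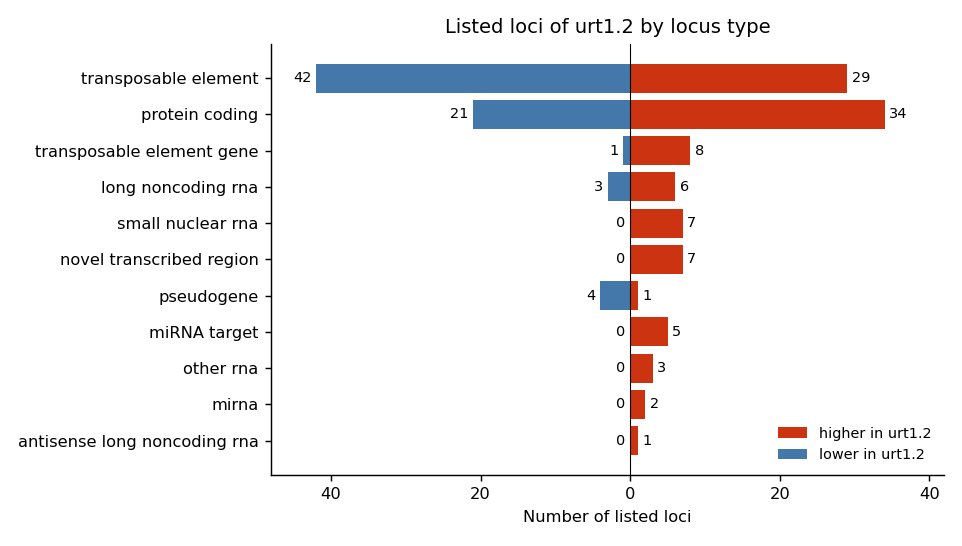
Number of loci listed in urt1.2 (x axis, bars start at 0) as higher (right) or lower (left) in each locus type of the authors' deposited table (y axis). Transposable elements had 42 lower and 29 higher loci, and protein-coding genes had 34 higher and 21 lower. Over all types 103 loci were higher and 71 lower, a split close to that of the protein-coding genes. The number of tested loci in each type is not known.

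Several groups known for siRNA production had no listed member. These were 0 of 8 TAS loci, which yield trans-acting siRNAs, 0 of 16 PPR genes known for phased siRNAs, 0 of 4 mRNA loci known for siRNAs of 22 bases and 0 of 3 ARF genes targeted by trans-acting siRNAs. Genes of the small RNA pathway (0 of 16), of mRNA decay (0 of 7) and of photosynthesis (0 of 7) were not listed either. Since 0.249% of all tested loci were listed, a count of 0 in lists of this size is close to the background.

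The alleles were compared directly at the 81 loci listed in both urt1.2 and urt1-1, as the difference of the log2 fold changes with a two-sided z test and Benjamini-Hochberg adjustment. The table lists 174 loci in urt1.2 and 292 in urt1-1, and those listed in only 1 of these 2 lines could not be tested. Loci where the alleles differ most may be among them, so agreement at the 81 is partly set by this choice. At 0 of 81 did the adjusted p fall under 0.05, and 1 locus passed an unadjusted p of 0.05. That locus was the transposable element AT4TE03735, listed at -2.14 in urt1.2 and -4.74 in urt1-1, with a difference of 2.60 (95% interval 1.01 to 4.19) and an adjusted p of 0.109 in the z test. When a correlation of 0.5 was allowed between the lines for their shared reference, its adjusted p was 0.000496 and it was the 1 locus called. The difference was -0.11 (-0.51 to 0.28) for AFB3, -0.07 (-0.51 to 0.36) for AFB2 and 0.003 (-0.46 to 0.46) for AT3G23690. The interval held 0 at 80 of 81 loci, and its median half-width was 0.711, and the half-width was under 1 at 49 of the 81. A miss in this test does not show that the alleles act alike. The fold changes share the Col-0 reference, which makes the test cautious. Of the entries of urt1.2, 9 were listed in no other line, among them MIR774a, NAC105, AT4G09500 and the overlapping pair AT2G02490 and AT2G02493.

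**Figure D4:**
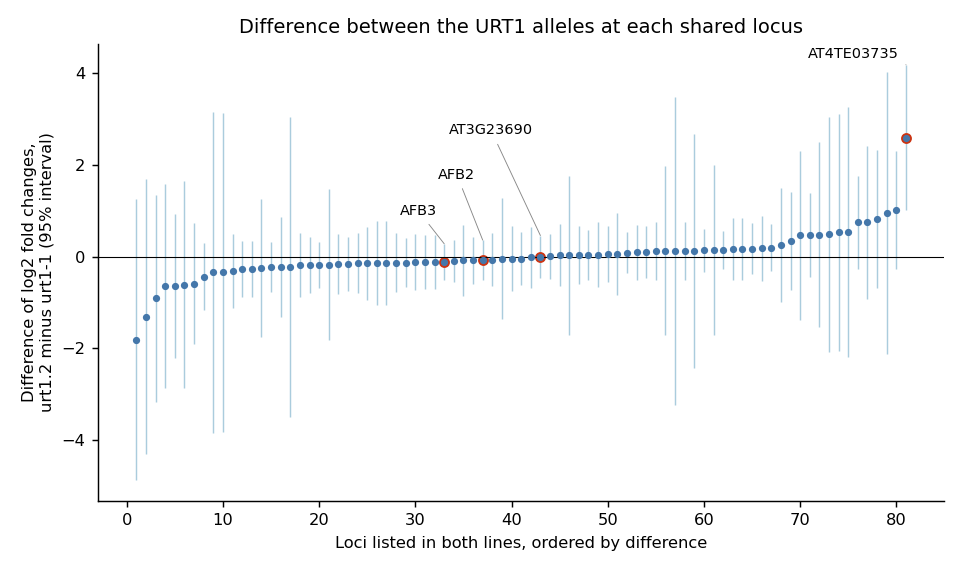
Difference of log2 fold changes, urt1.2 minus urt1-1 (y axis), at the 81 loci listed in both lines, ordered by size (x axis). Points are differences, bars are 95% intervals from recovered standard errors, and the 4 loci marked in red are AFB3, AFB2, AT3G23690 and AT4TE03735; the interval leaves out 0 only at AT4TE03735.

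Against heso1-4/urt1-1, which lists 405 loci, the 98 listed in both lines could be tested and 4 differed (4.08%), each lower in urt1.2. With a correlation of 0.5 for the shared reference 10 differed, and of these AT3G23690 and AT4TE03735 were higher in urt1.2. AT3G23690, the bHLH gene, stood 0.59 above its value in the double mutant (95% interval 0.13 to 1.06), with an adjusted p of 0.144 in the z test and 0.00447 with the correlation. The difference at AT4TE03735 was 2.07, with an adjusted p of 0.137 and 0.00368. The overlapping long noncoding RNAs AT1G09793 and AT1G09797, which share 621 bases on opposite strands, were each listed at 0.94 in urt1.2 in the authors' deposited table, against 2.35 and 2.36 in the double mutant. Both differences were -1.41, with an adjusted p of 0.000111 in the z test. AT5G20700, a gene of a DUF581 senescence-associated family, stood at 1.32 against 2.28, a difference of -0.96 (adjusted p 0.00319). The transposable element AT4TE78690 stood at 1.08 against 2.35, a difference of -1.27 (adjusted p 0.0367).

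Against GKheso1, which lists 219 loci, the 49 listed in both lines could be tested and 4 differed (8.16%). Of these 4, AT3G22730 and AT5G41510 had opposite signs in the lines. AT5G41510 was listed at 1.41 in urt1.2 and -1.17 in GKheso1 in the authors' deposited table, a difference of 2.58 (1.86 to 3.29) with an adjusted p of 7.83e-11 in the z test. AT3G22730, one of the F-box genes with a miR774a match, was listed at 0.94 and -0.91, a difference of 1.85 (1.24 to 2.46, adjusted p 7.22e-08). LBD16 was lower in both lines, at -1.43 and -3.59, a difference of 2.16 (adjusted p 0.00238). The transposable element AT2TE10215 was the reverse, at -2.86 against -1.32, a difference of -1.53 (adjusted p 0.0247).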

How the data were processed

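Inflorescence small RNA was sequenced per the labels. The submitters' processing notes name DESeq2, Subread 1.6.3 with featureCounts, STAR 2.6.0a and cutadapt 2.4, with the build TAIR10 and no order or settings. The authors' deposited table gives, per locus and line, a mean normalised count (a signal that is the same in every line listing the locus), a log2 fold change, a p-value and an adjusted p-value of DESeq2 per the file headers. It holds no counts per library, so depth is unknown and no replicate values, paired fit or left-out replicate could be had. The sources do not say how the libraries of urt1.2 were replicated, so any spread between them may be technical. Nor do they say whether the spread behind its p-values came from those libraries alone or was shared over all lines. The median ratio of the urt1.2 error to the median error of the locus over lines was 1.005.

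The number of loci tested (69793 in urt1.2) was recovered from ranks, the p-value times this number over the adjusted p. The search limit was widened to 130000 after a first output, and 82.8% of ranks came out whole within 1e-06. Each standard error is the size of the log2 fold change divided by the two-sided normal quantile of its p. Where urt1.2 lists a locus, its error there was used for the detection limits of the lines that do not list it. Where urt1.2 does not list a locus, the median error over the lines that do was used. The z test was tested on simulated data, and its pass mark was changed after the first output of that test. Adjusted p-values are the authors' over all their loci, or Benjamini-Hochberg over the loci of a pair of lines.

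The members and gene lists were chosen with earlier results of these data known. Named by rule were the mutated genes, list members and microRNA genes, the 8 largest changes in each direction (all loci, and protein-coding), the 8 smallest p, loci differing from urt1-1 and the 6 highest mean counts. Other named loci were chosen after their values were seen. Coordinates and sequences come from RefSeq TAIR10.1, which matched 103 of 174 loci; 71 transposable elements were not matched. Sites were searched without gaps on the longest transcript of each gene. Python 3.11.15, pandas 2.3.3, NumPy 2.4.6, SciPy 1.17.1 and matplotlib 3.10.9 were used. Sequences of the small nuclear RNA genes are not reported here.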

Additional observations from a re-analysis of the deposited data

Results flagged for a closer look

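The z test set 8 differences apart between urt1.2 and another line under the same contrast with Col-0. Against GKheso1 they were 2.58 at AT5G41510, 1.85 at AT3G22730, 2.16 at LBD16 (AT2G42430) and -1.53 at AT2TE10215 on the log2 scale. Against heso1-4/urt1-1 they were -1.41 at AT1G09793, -1.41 at AT1G09797, -1.27 at AT4TE78690 and -0.96 at AT5G20700. AT1G09793 and AT1G09797 overlap and count as 1 stretch of reads. AT5G41510 and AT3G22730 were higher in urt1.2 and lower in GKheso1.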

How the results depend on the processing

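The counts of 103 higher and 71 lower loci became 66 and 42 with a mean count of at least 50, and 66 and 28 with transposable elements and their genes left out, by construction of these subsets. They were 73 and 50 at an adjusted p of 0.01, 80 and 60 with a change of at least 2-fold, and 95 and 70 with loci within 1000 bases counted as 1 region. Of 44 loci named by rule, 36 passed an adjusted p of 0.01 and 8 did not. With a correlation of 0.5 between lines for the shared reference, the differing loci went from 0 to 1 (AT4TE03735) against urt1-1, from 4 to 10 against heso1-4/urt1-1 and from 4 to 8 against GKheso1; the smaller error of the difference is part of that setting. With the median error over lines they were 0, 4 and 7, and at a threshold of 0.01 they were 0, 3 and 3; for the 7 the cause was not tested. The settings for heso1-4/urt1-1 and GKheso1 were chosen after seeing the data. No paired analysis was possible because the deposited table has no values per library, and leaving out each replicate was not run for the same reason. Depth is unknown, and 149 of 323 ranks of urt1.2 are missing, so counts are of listed loci.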
